A study of Rattus norvegicus with 16 samples.

Results

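Rat pancreatic islets kept for 18 h at 30 mmol/l glucose were compared with islets kept at 2 mmol/l, the ends of a series of 4 concentrations. The comparison holds 8 of the 16 arrays of the series, 4 at each end, chosen by the glucose concentration in the labels and paired by replicate number, and it covers the 31042 of 31099 probe sets that are not array controls. An islet is a small endocrine organ of the pancreas, with insulin-producing beta cells as its main cell type beside alpha, delta and other cells. The islets of both groups came from male Wistar rats of 180 to 200 g, with no genetic change named in the labels. After isolation all spent 1 week in a serum-free RPMI medium with bovine serum albumin (5 g/l) at 10 mmol/l glucose. For the last 18 h the glucose was 2 or 30 mmol/l in the groups compared, and 5 or 10 mmol/l in the others, with 1000 islets in each culture. The series' text states that 4 experiments used different islet preparations, so a replicate number is taken as 1 preparation; how many animals gave a preparation is not given in the sources used here. As models, these are isolated islets after a long preculture, and each array reads the mixed RNA of all their cells. In such samples a lower level per cell and fewer cells of a type cannot be told apart.

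Each replicate number was also 1 run of the array washing station, with 1 array of each concentration. In all 4 runs the array at 2 mmol/l was on fluidics module 1 and was scanned first, and the array at 30 mmol/l was on module 4 and was scanned last, so module and scan order cannot be told apart from glucose. The ratio of 3′ to 5′ signal of Actb, a measure of RNA and labelling quality, had a mean of 1.76 (SD 0.131, 4 arrays) at 2 mmol/l and of 2.04 (SD 0.0850, 4 arrays) at 30 mmol/l (higher in 4 of 4 pairs; exact permutation p = 0.0286, two-sided, the smallest that 4 against 4 arrays allow; adjusted p = 0.0429). The spiked hybridization controls had a mean log2 signal of 9.42 ± 0.105 at 2 mmol/l and 9.67 ± 0.0548 at 30 mmol/l, with the same p and adjusted p, and were higher in 4 of 4 pairs. The Gapdh ratio was 0.864 ± 0.0676 against 0.898 ± 0.0515, also higher in 4 of 4 pairs (exact permutation p = 0.457, which does not use the pairs). The part of these quality measures in the results was not tested. The deposited signals share 1 scale: the mean of each array after trimming was 150.04 to 150.05, and the median of all signals was 45.4. The islet identity of the RNA was plain, since Iapp ranked 6 and Ins1 ranked 12 among all probe sets by mean level, while 1 of 19 acinar marker genes with a probe set passed the filter on level.

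Glucose drives the beta cell through its own metabolism. It enters through the transporter Slc2a2, and its oxidation raises ATP, closes potassium channels, opens calcium channels and releases insulin. The same metabolism acts on transcription: sugar phosphates activate the factor Mlxipl (ChREBP), which with its partner Mlx binds carbohydrate response elements of glycolytic, lipogenic and regulatory genes, and calcium and cAMP act through Creb. Both very low and very high glucose are known to strain cultured islets, so stress pathways were described beside the metabolic ones.

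Changes are differences in log2 signal between group means, 30 minus 2 mmol/l, with the standard error from limma's fit over all 16 arrays with the replicate number as a block. A gene is said to rise or fall where its adjusted p (Benjamini-Hochberg over 18625 tested probe sets) was under 0.05, and a gene stands for its brightest probe set with 1 gene symbol. Of the probe sets tested, 8615 passed (46.3%), 3847 higher and 4768 lower at 30 mmol/l. Of 10223 genes tested, 5269 passed (51.5%): 2183 rose (21.4%) and 3086 fell (30.2%). The median change over all tested genes was -0.06. At least 2-fold changes were seen in 651 called genes, 232 higher and 419 lower, and 29 genes rose and 45 fell at least 4-fold. For 3990 genes (39.0%) no array of one group lay within the range of the other, and 3815 of those were called. Within each run, 2047 of the 2183 genes that rose were higher in 4 of 4 pairs, and 2887 of the 3086 that fell were lower in 4 of 4. Without the replicate block 6869 probe sets passed in place of 8615. So many genes passed that the counts of a gene list are to be set against 21.4% higher and 30.2% lower. Of the 28 pathway lists described below, 4 lay within 10 percentage points of both shares: lipolysis and lipid droplets, fatty acid oxidation, the aminoacyl-tRNA synthetases and the cell cycle.

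**Figure D1:**
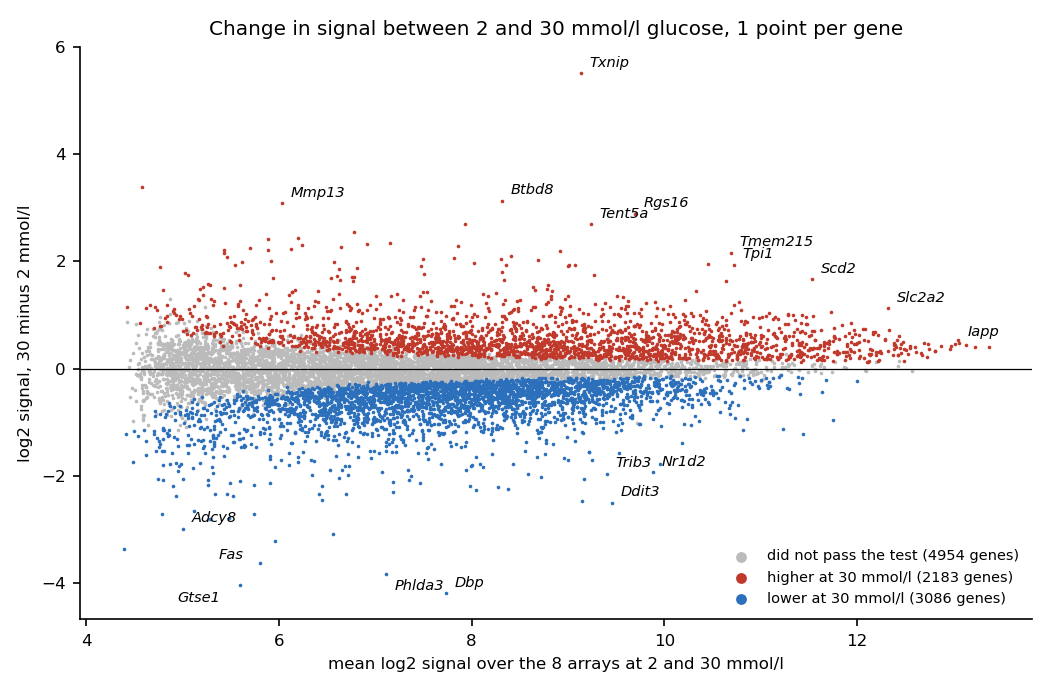
Change in log2 signal between 2 and 30 mmol/l glucose (vertical axis, 30 minus 2) against the mean log2 signal of the 8 arrays (horizontal axis), 1 point per tested gene; red and blue points passed the test and grey points did not. Txnip stands alone at 5.52, more called genes lie below -2 than above 2, and the brightest genes sit a little above 0.

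Part of the picture depended on scaling. The 200 brightest probe sets had a median change of 0.32 in the deposited values and of -0.02 after quantile normalization, which gives every array the same distribution. Where quantile normalization ended the call of a gene described below, or moved a called change by over 1.5 times, its value or adjusted p stands beside the deposited one. At the dim end, detection calls were not used here, so it is not known whether a very low signal exceeds background. Where all arrays of a group read under the median of 45.4, the size of a change is therefore uncertain, and the change of log2(signal + 50) is given beside it; 13 called genes below were of this kind, and all 13 passed on that scale too.

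The carbohydrate response element genes held the most extreme change. Txnip, an arrestin that binds thioredoxin and limits glucose uptake, had signals of 79.3, 73.0, 94.4 and 86.5 at 2 mmol/l and 3898, 5015, 3901 and 2716 at 30 mmol/l in replicates 1 to 4. The lowest array at 30 mmol/l was far above the highest at 2 mmol/l, and the change was 5.52 ± 0.16 (45.7-fold; adjusted p = 1.21e-13). Rgs16, which shortens signalling by G protein-coupled receptors, read 244, 428, 272 and 305 at 2 mmol/l and 3096, 2917, 2145 and 1358 at 30 mmol/l. Its change was 2.89 ± 0.17 (adjusted p = 5.4e-10), again without overlap of the groups, and replicate 4 was the lowest of the arrays at 30 mmol/l. Of 20 genes on this list 18 had a probe set and 16 were tested: 13 rose, 0 fell and 3 did not pass, with a median of 0.64. The transcriptional repressor Klf10 rose by 1.93 ± 0.12, and nearly all of it lay above 10 mmol/l, since the step from 10 to 30 mmol/l was 1.78. Arrdc4, an arrestin related to Txnip, rose by 1.14 ± 0.11, the pyruvate kinase gene Pklr by 1.05 ± 0.15 and Mlxipl itself by 0.61 ± 0.13. The clock-linked repressor Bhlhe40 showed a different course: its mean was 88.3 ± 32.3 at 2, 34.5 ± 7.98 at 10 and 126 ± 18.1 at 30 mmol/l. All Bhlhe40 arrays at 10 mmol/l read under 45.4 (26.2 to 44.6), so the size of this dip is uncertain. Its call at 30 over 2 mmol/l (0.57 ± 0.20, adjusted p = 0.0265) ended without the replicate block (adjusted p = 0.0522) and without replicate 1 or 3 (adjusted p = 0.149 and 0.198).

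The carbohydrate response element consensus (a pair of E-box-like motifs at a fixed spacing, searched on both strands) was found in 25 of 33469 RefSeq promoters of 250 bases before and 50 after a gene start, or 0.0747%. Among 8592 tested genes with a promoter entry, 9 held a match (0.105%). Of these 9, 5 rose, 0 fell and 4 did not pass (Fam124a, Insig2, Nup62 and Tnfaip3). The 5 are printed below, 5′ to 3′ on the strand of the gene, build GRCr8, with the match in capitals; Smim7, Irak1 and Hes1 were chosen for printing after their values were seen.
Rgs16 (chr13:68438068-68438124, plus strand): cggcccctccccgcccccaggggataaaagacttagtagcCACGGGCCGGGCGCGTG
Pklr (chr2:176841056-176841152, plus strand): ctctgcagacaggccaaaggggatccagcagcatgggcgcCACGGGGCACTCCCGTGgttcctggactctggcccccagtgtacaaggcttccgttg
Smim7 (chr16:17308276-17308372, plus strand): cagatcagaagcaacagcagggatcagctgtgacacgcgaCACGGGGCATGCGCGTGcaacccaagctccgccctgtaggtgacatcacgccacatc
Irak1 (chrX:156929826-156929886, minus strand): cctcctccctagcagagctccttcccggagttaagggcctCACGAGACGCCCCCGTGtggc
Hes1 (chr11:84213086-84213182, minus strand): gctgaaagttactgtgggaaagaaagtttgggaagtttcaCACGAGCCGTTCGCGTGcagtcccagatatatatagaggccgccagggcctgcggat
The match began 12 bases before the gene start in Rgs16, 168 in Pklr, 150 in Smim7, 21 in Irak1 and 97 in Hes1. Rgs16 and Pklr are the list members among them, 2 of the 11 tested members with a promoter entry. Txnip had no promoter entry, so its promoter was not searched. Smim7, a small membrane protein, rose by 0.79 ± 0.06, the interleukin receptor kinase Irak1 by 0.50 ± 0.06, and the Notch target Hes1 by 0.61 ± 0.18 (adjusted p = 0.00884, lost without replicate 1 or 3). A plain E-box (CACGTG, its own reverse complement) is common, in 6.42% of promoters and 10.2% of tested genes. Arrdc4 held 1, in capitals, that began 177 bases before its start (chr1:131793557-131793642, minus strand).
Arrdc4: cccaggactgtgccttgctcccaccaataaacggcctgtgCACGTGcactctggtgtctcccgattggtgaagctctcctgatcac
A match describes letters, not a bound site.

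**Figure D2:**
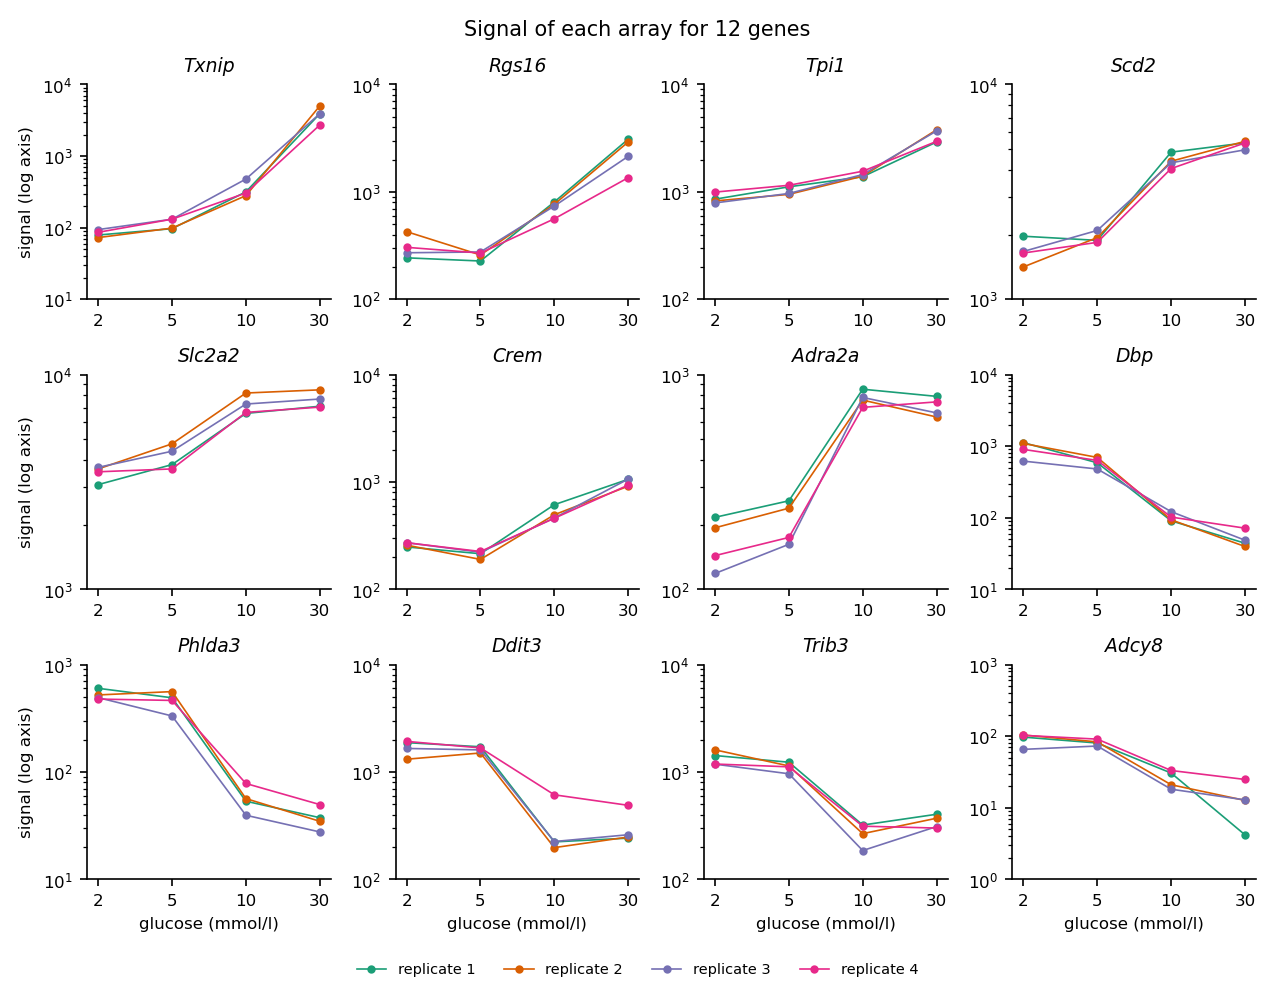
Signal of each of the 16 arrays for 12 genes (vertical log axes) against glucose concentration in mmol/l (horizontal axis, the 4 concentrations at equal spacing); a line joins the arrays of 1 replicate number. Txnip and Tpi1 climb most between 10 and 30 mmol/l, Slc2a2 and Adra2a are level from 10 to 30 mmol/l, and Dbp, Phlda3, Ddit3 and Trib3 drop mainly between 5 and 10 mmol/l.

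To place the change along the concentrations, 30 over 2 mmol/l can be split into 10 over 2 and 30 over 10 mmol/l. These 3 comparisons share arrays, and the first is the sum of the others, so their values are given side by side only. Over all genes tested, 4822 (47.2%) passed at 10 over 2 mmol/l and 1809 (17.7%) at 30 over 10 mmol/l. The latter count was 881 without the replicate block, 1183 without replicate 2 and 1061 without replicate 3.

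Glucose entry and glycolysis genes rose almost throughout. Of 27 genes on the list, 24 had a probe set and 17 were tested: 14 rose, 1 fell and 2 did not pass, with a median of 0.88. The glucose transporter Slc2a2 read 3075, 3637, 3698 and 3527 at 2 mmol/l and 7119, 8486, 7690.4 and 7054 at 30 mmol/l. The groups did not overlap, the change was 1.12 ± 0.05 (adjusted p = 1.44e-11), and 10 mmol/l already gave 1.04 of it. Lower glycolysis behaved otherwise. Tpi1, triosephosphate isomerase, read 857, 825, 791 and 998 at 2 mmol/l and 2917, 3787, 3698 and 2957 at 30 mmol/l. No array overlapped, and the change of 1.94 ± 0.09 was made of 0.75 from 2 to 10 and 1.19 from 10 to 30 mmol/l. The enolase Eno1 rose by 1.64 ± 0.08, of which 1.32 came above 10 mmol/l, and phosphoglycerate kinase Pgk1 by 1.04 ± 0.07, of which 0.82 did. Pgam1, the mutase between them, rose by 1.00 ± 0.06, and part of this was already present at 10 mmol/l. Its arrays read 1865 to 2107 at 2, 2743 to 2943 at 10 and 3624 to 4181 at 30 mmol/l. Lactate dehydrogenase A and the lactate transporter Slc16a1 are known to be kept low in beta cells. Ldha read 82.3, 90.2, 63.3 and 77.9 at 2 mmol/l and 237, 189.8, 113 and 144 at 30 mmol/l. It rose by 1.08 ± 0.15 (adjusted p = 8.25e-06), with replicates 1 and 2 highest at 30 mmol/l, while Slc16a1, the list's 1 gene that fell, had a change of -0.80 ± 0.22 (-0.39 with 50 added; lost with the mean of its probe sets, adjusted p = 0.212).

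In the pentose phosphate pathway and NADPH supply, 6 of 11 tested genes rose and 1 fell (2 without replicate 2), with a median of 0.27. Transketolase Tkt rose by 0.68 ± 0.09, all of it above 10 mmol/l (0.76 at 30 over 10 mmol/l), phosphogluconate dehydrogenase Pgd by 0.61 ± 0.10 and malic enzyme Me1 by 0.69 ± 0.06. Hexosamine, polyol and glycogen genes went both ways: 7 of 20 rose, 6 fell and 7 did not pass, with a median of 0.01. Pgm3 of hexosamine synthesis rose by 1.53 ± 0.25 (0.64 with 50 added) and the glycogen branching enzyme Gbe1 by 0.68 ± 0.08. Gyg1, the primer of glycogen, fell: its arrays read 838, 792, 807 and 889 at 2 mmol/l and 422, 504, 436 and 416 at 30 mmol/l. No array overlapped, and the drop (-0.91 ± 0.08, adjusted p = 7.78e-08) was complete at 10 mmol/l. Ugp2, which makes UDP-glucose, had a change of -0.45 ± 0.06, the hexosamine gate enzyme Gfpt2 of -0.44 ± 0.07 and sorbitol dehydrogenase Sord of -0.71 ± 0.10.

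Fatty acid and glycerolipid synthesis rose as a group: 18 of 25 tested genes (of 27 on the list) rose and 1 fell, with a median of 0.53. The desaturase Scd2 read 1968, 1417, 1672 and 1644 at 2 mmol/l and 5351, 5442, 4967 and 5347 at 30 mmol/l. Its change was 1.66 ± 0.07 (adjusted p = 9.12e-12), without overlap, and 1.40 of it was present at 10 mmol/l. Fatty acid synthase Fasn read 243, 236, 236 and 272 at 2 mmol/l and 468, 528, 542 and 528 at 30 mmol/l. The groups were apart, and the change of 1.07 ± 0.09 (adjusted p = 3.69e-08) was held by both of its probe sets. ATP citrate lyase Acly rose by 0.59 ± 0.06, and by 0.26 after quantile normalization. Mid1ip1, an activator of acetyl-CoA carboxylase, rose by 0.97 ± 0.06, mostly above 10 mmol/l (0.76), and the lipogenic factor Srebf1 by 0.75 ± 0.14.

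Cholesterol synthesis and uptake genes rose as well, in 15 of 20 tested, with a median of 0.70. Dhcr7, which makes cholesterol from its immediate precursor, read 84.7, 94.8, 99.2 and 88.4 at 2 mmol/l and 393, 411, 262 and 340.2 at 30 mmol/l. Every array at 30 mmol/l exceeded every array at 2 mmol/l, with a change of 1.92 ± 0.15 (adjusted p = 9.29e-09). Idi1, isopentenyl diphosphate isomerase, read 545, 281, 256 and 332 at 2 mmol/l and 1693, 1122, 756 and 1129 at 30 mmol/l. Replicate 1 was highest in both groups, and the change was 1.74 ± 0.12 (adjusted p = 4.04e-09). Sqle, squalene epoxidase, rose by 1.44 ± 0.10, lanosterol synthase Lss by 1.20 ± 0.10 and the demethylating oxidase Msmo1 by 1.13 ± 0.09. For Idi1, Sqle, Lss and Msmo1 the step from 10 to 30 mmol/l was 0.01, 0.15, -0.05 and -0.05, and it passed the test for none of them. Dhcr7 differed: it read 282, 214, 222 and 228 at 10 mmol/l, lower than at 30 mmol/l in every pair. The 1 gene that fell, the phosphomevalonate kinase Pmvk (-0.27 ± 0.10, adjusted p = 0.0401), lost its call without the replicate block (adjusted p = 0.0942) and under several other settings, among them quantile normalization (-0.17, adjusted p = 0.191) and without replicate 3 (0.162).

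Genes of lipid breakdown were mixed. Of 12 tested lipolysis and lipid droplet genes 2 rose (1 without replicate 3) and 3 fell. G0s2, an inhibitor of the lipase Atgl, read 259, 216, 193 and 238 at 2 mmol/l and 1444, 1081, 984 and 745 at 30 mmol/l. The groups were far apart, at 2.20 ± 0.12 (adjusted p = 2.42e-10), yet the mean at 10 mmol/l lay below that at 2 mmol/l: G0s2 changed by -0.47 from 2 to 10 and by 2.67 from 10 to 30 mmol/l, and both steps passed the test. In fatty acid oxidation 5 of 22 tested genes rose and 5 fell, with a median of -0.01, and 2 rose without the replicate block (3 without 30 mmol/l replicate 4). Cpt1a, the gate of fatty acid entry into mitochondria, fell by 0.37 on the log2 scale (adjusted p = 0.00382); 1 of its 2 probe sets passed, and with their mean the call was lost (adjusted p = 0.108). Hadh, an oxidation enzyme that also restrains insulin release, rose by 0.41 ± 0.05, and had 0.08 after quantile normalization, which did not pass. With the mean of its probe sets the Hadh call was lost too (0.36, adjusted p = 0.086).

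Pyruvate entry and citric acid cycle genes rose in 13 of 26 tested cases and fell in 4, with a median of 0.21; 2 fell without the replicate block and 1 without replicate 4. Pdk1, which switches off pyruvate dehydrogenase, read 153, 189, 127 and 158 at 2 mmol/l and 388, 420.1, 329 and 331 at 30 mmol/l. The groups did not overlap, and the change of 1.24 ± 0.14 (adjusted p = 1.27e-06) lay above 10 mmol/l (0.05 then 1.19). Its relative Pdk4 did not pass (-0.02 ± 0.07, adjusted p = 0.863), with steps of 0.32 and -0.33 that each passed. Pdha1, a subunit of the dehydrogenase itself, rose by 0.51 ± 0.06 and Ogdh, the oxoglutarate dehydrogenase, by 0.65 ± 0.08, while the succinate dehydrogenase subunit Sdha fell (-0.38 ± 0.09). Ucp2, a mitochondrial carrier, had a change of 0.49 ± 0.17 (adjusted p = 0.0232) that was lost without the replicate block (adjusted p = 0.0681) and without replicate 1 (adjusted p = 0.0743). Branched-chain amino acid and lysine breakdown ran the other way, with 12 of 23 tested genes lower, 4 higher and a median of -0.25 (2 higher without the replicate block, or without replicate 2). Bckdha, of the branched-chain ketoacid dehydrogenase, read 130.1, 129, 139.6 and 122 at 2 mmol/l and 37.7, 32.7, 37.1 and 64.7 at 30 mmol/l. The change was -1.65 ± 0.17 (adjusted p = 3.65e-07), and replicate 4 stood above the other arrays at 30 mmol/l. Mmut, which feeds propionate carbon into the cycle, had a change of -0.85 ± 0.08 and Hibch, of valine breakdown, of -0.71 ± 0.07. Dbt, of the same dehydrogenase complex, had -0.79 ± 0.10, lost with the mean of its probe sets (adjusted p = 0.299). Aass, the first enzyme of lysine breakdown, rose by 0.56 ± 0.08 and was highest at 10 mmol/l (1746 ± 299; 715 ± 52.2 at 2 and 1054 ± 118 at 30 mmol/l).

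Among oxidative phosphorylation subunits 19 of 28 tested rose and 1 fell (median 0.34). After quantile normalization 10 rose and 1 fell (median 0.12). Ndufa4, a respiratory chain subunit, read 1829.9, 1633, 1792 and 1781 at 2 mmol/l and 3465, 4145, 3459.7 and 3149.5 at 30 mmol/l. The groups did not overlap, and its change of 1.01 ± 0.09 was 0.75 after quantile normalization, and passed in both. The complex III subunit Uqcrq rose by 0.88 ± 0.08 (0.68 after quantile normalization) and Cox5b of cytochrome oxidase by 0.58 ± 0.06 (0.36).

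The hormone genes lie at the top of the signal range, where the scaling mattered most. Ins1 read 5982, 6509, 5976 and 7526 at 2 mmol/l and 8059.7, 9822, 8578 and 8423 at 30 mmol/l. The arrays did not overlap and the change was 0.43 ± 0.07 (adjusted p = 4.74e-05), but 0.02 after quantile normalization (adjusted p = 0.73). Ins2, whose transcript is nearly identical, had a change of 0.28 ± 0.08 (adjusted p = 0.00897), lost without the replicate block (adjusted p = 0.0711), without replicate 1 or 2 and after quantile normalization (-0.06). The amyloid peptide Iapp, co-released with insulin, changed by 0.49 ± 0.05 and glucagon, Gcg, of the alpha cells, by 0.40 ± 0.06. After quantile normalization neither passed (0.01 for Iapp, with an adjusted p of 1 for Gcg). Somatostatin, Sst, of the delta cells, rose by 0.48 ± 0.05 and by 0.13 after quantile normalization. The gut and islet peptide Pyy rose by 0.86 ± 0.08 and by 0.89. Pancreatic polypeptide, Ppy, rose by 0.32 ± 0.07 in 4 of 4 pairs, but its groups overlapped, and without the replicate block the adjusted p was 0.45.

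Insulin granule and prohormone processing genes showed the same dependence: 17 of 18 tested rose and 1 fell as deposited (median 0.44), against 7 and 2 after quantile normalization (median 0.02). The granule phosphatase-like antigen Ptprn rose by 0.83 ± 0.07 and by 0.66. The 1 gene that fell was Gpr27, an orphan receptor (-0.51 ± 0.14, lost without replicate 2). In the exocytosis machinery 9 of 21 rose and 5 fell. Sytl4 (granuphilin), which docks granules, read 744, 894, 537 and 633 at 2 mmol/l and 1353, 1789, 1508 and 1385 at 30 mmol/l. All arrays at 30 mmol/l were above all at 2 mmol/l, and the change of 1.12 ± 0.09 (adjusted p = 1.2e-08) stayed at 1.04 after quantile normalization. The membrane SNARE Snap25 rose by 0.61 ± 0.06 and by 0.30.

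**Figure D3:**
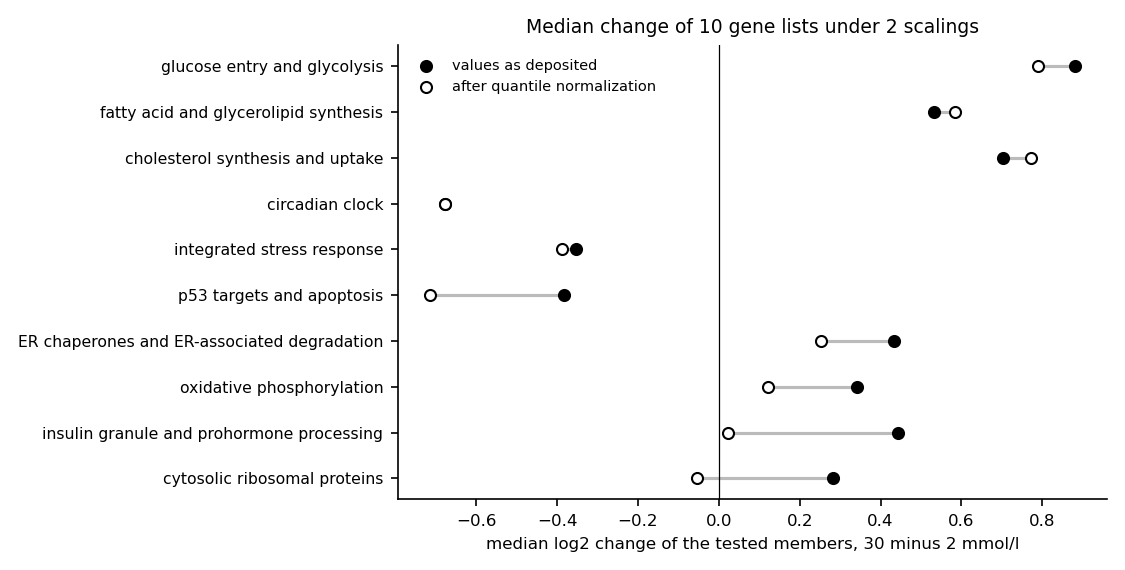
Median log2 change, 30 minus 2 mmol/l, of the tested members of 10 gene lists (horizontal axis), with the values as deposited (filled points) and after quantile normalization of the arrays (open points). The glycolysis, lipid synthesis, clock and stress response medians keep their sign, while those of the insulin granule (0.44 to 0.02) and ribosomal protein lists (0.28 to -0.05) move to about 0.

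Beta cell transcription factors did not move together. Of 12 tested 6 rose and 3 fell. Pdx1, the activator of insulin and Slc2a2, read 665, 972, 648 and 728 at 2 mmol/l and 394, 456, 507 and 428 at 30 mmol/l. Every array at 30 mmol/l was below every array at 2 mmol/l, with a change of -0.74 ± 0.10 (adjusted p = 7.19e-06; -0.73 after quantile normalization). Mafa, an insulin gene activator, read 2750.3, 3446, 2538 and 2560.3 at 2 mmol/l and 4191, 4513, 3926 and 3379 at 30 mmol/l. The groups overlapped by 1 array at 2 mmol/l, replicate 2, and the change was 0.51 ± 0.06 (adjusted p = 1.14e-06; 0.19 after quantile normalization). Nkx6-1, a keeper of beta cell identity, had a change of -0.32 ± 0.08 and Pax6, which acts in all islet endocrine cells, of 0.49 ± 0.06 (0.18 after quantile normalization). Neurod1 rose by 0.39 ± 0.07, and had 0.07 after quantile normalization, which did not pass.

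Receptors and channels that tune insulin release held some of the largest changes in both directions: 9 of 23 tested rose and 7 fell (4 without replicate 1). Gem, a small GTPase that holds back calcium channels, read 85.5, 118, 92.9 and 89.8 at 2 mmol/l and 744, 514, 543 and 703 at 30 mmol/l. All arrays at 30 mmol/l were above all at 2 mmol/l, by 2.69 ± 0.15 (6.45-fold; adjusted p = 2.11e-10). Adra2a, the adrenergic receptor that stops insulin release, read 217, 194, 119 and 144 at 2 mmol/l and 791, 634, 663 and 746 at 30 mmol/l. Here too the groups were apart, and the change was 2.11 ± 0.12 (adjusted p = 2.27e-10), complete at 10 mmol/l (2.24 from 2 to 10 mmol/l). Adcy8, a calcium-stimulated adenylyl cyclase, read 97.1, 104, 65.5 and 103 at 2 mmol/l and 4.20, 12.7, 12.9 and 24.9 at 30 mmol/l. The arrays at 30 mmol/l lay well below those at 2 mmol/l, and the change was -2.99 ± 0.34 (adjusted p = 1.06e-06; -1.16 with 50 added). Cacna1c, a pore subunit of L-type calcium channels, fell by 1.20 on the log2 scale. Rgs4, another brake on G protein signalling, rose by 0.84 ± 0.07. Of the subunits of the ATP-sensitive potassium channel, Abcc8 had 0.33 ± 0.06 (adjusted p = 0.000367, lost without the replicate block at 0.102) and Kcnj11 0.02 ± 0.08 (adjusted p = 0.848). The incretin receptor Glp1r had a change of -0.29 ± 0.09 (adjusted p = 0.0112), lost without the replicate block (adjusted p = 0.17), after quantile normalization (adjusted p = 0.0574) and without replicate 1 (adjusted p = 0.0794).

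Genes kept low in beta cells, a list of transcripts that healthy beta cells are known to repress, rose in 8 of 18 tested cases and fell in 3 (median 0.21). Without the replicate block, or without replicate 2, 5 rose.

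ER chaperones and ER-associated degradation genes rose in 24 of 34 tested cases and fell in 4 (median 0.43), with 18 and 6 after quantile normalization (median 0.25). Edem2, which marks misfolded glycoproteins, read 342, 257, 234 and 289 at 2 mmol/l and 758, 825, 739 and 700.5 at 30 mmol/l. No array overlapped and the change was 1.44 ± 0.10 (adjusted p = 3.6e-09). Creld2, a secreted ER stress protein, rose by 1.04 ± 0.08, with 0.76 of it above 10 mmol/l, and the disulfide isomerases P4hb and Pdia6 rose by 0.86 ± 0.07 and 0.68 ± 0.05 (0.54 and 0.36 after quantile normalization). The main ER chaperone Hspa5 (BiP) read 6626, 7001, 7030.0 and 7576 at 2 mmol/l and 8508, 9891, 9184 and 8649 at 30 mmol/l. It rose by 0.36 ± 0.05 as deposited and had -0.09 after quantile normalization (adjusted p = 0.1). Sel1l and Herpud1, both of the degradation complex, fell by 0.55 and 0.29 on the log2 scale, and both were lowest at 10 mmol/l. After quantile normalization Herpud1 had -0.54. Xbp1, the transcription factor of the unfolded protein response, did not pass as deposited (0.07 ± 0.06, adjusted p = 0.356), and fell after quantile normalization (-0.27, adjusted p = 0.000243).

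The integrated stress response ran opposite to the chaperones. This pathway slows translation through phosphorylated eIF2 alpha and turns on Atf4 targets when amino acids run short or the ER is strained. Of 28 tested genes on the list 18 fell, 6 rose and 4 did not pass, with a median of -0.35 (-0.39 after quantile normalization). Without replicate 3, 3 rose. Ddit3 (CHOP) read 1877, 1315, 1657 and 1928 at 2 mmol/l and 242, 248, 261 and 489.9 at 30 mmol/l. The groups were far apart, with replicate 4 highest at 30 mmol/l, and the change was -2.50 ± 0.18 (adjusted p = 4.87e-09). Trib3, the pseudokinase that Ddit3 induces, read 1423, 1608, 1183 and 1186 at 2 mmol/l and 404, 372, 311 and 301 at 30 mmol/l. No array overlapped, and its change was -1.96 ± 0.10 (adjusted p = 9.78e-11). Ppp1r15a (GADD34), which restores translation, had a change of -1.70 ± 0.10, Atf3 of -1.89 ± 0.22, Cebpb of -1.37 ± 0.10 and the stress cytokine Gdf15 of -1.97 ± 0.18. In each of these 6 genes the drop was complete at 10 mmol/l, and for Trib3 and Ppp1r15a a small step up followed from 10 to 30 mmol/l (0.37, adjusted p = 0.0193, and 0.42, adjusted p = 0.0079). Atf5, a factor of the same family, rose: its arrays read 519.6, 411, 554 and 445 at 2 mmol/l and 1285, 1040.1, 1278 and 1246 at 30 mmol/l. No array overlapped, and the change was 1.33 ± 0.07 (adjusted p = 5.91e-11). Aldh18a1, of proline synthesis, rose by 1.07 ± 0.07.

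The amino acid response element (TGATGNAA, searched on both strands) was in 3.98% of promoters and 2.11% of tested genes; 4 of 25 list members with a promoter entry held a match, 3 that fell and 1 that rose. In Trib3 the match lies on the other strand and begins 21 bases before the gene start (chr3:161275534-161275594, minus strand, GRCr8, match in capitals). The cAMP response element (TGACGTCA, its own reverse complement) was in 1.83% of promoters and 3.49% of tested genes, among them Ppp1r15a, 66 bases before its start (chr1:105139615-105139702, minus strand).
Trib3: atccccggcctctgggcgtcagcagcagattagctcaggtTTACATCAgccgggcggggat
Ppp1r15a: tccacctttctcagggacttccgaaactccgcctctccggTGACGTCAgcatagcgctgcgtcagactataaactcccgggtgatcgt

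Cytosolic aminoacyl-tRNA synthetases, which load amino acids on tRNA and in part answer to Atf4, fell in 7 of 19 tested cases and rose in 5 (3 without replicate 1), near the shares over all genes, with a median of -0.06. Aars1 read 2651, 2659, 1891 and 2217 at 2 mmol/l and 1326, 1331, 1179.6 and 1110.3 at 30 mmol/l. It fell in every pair (-0.92 ± 0.08, adjusted p = 5.88e-08), and was lowest at 10 mmol/l. Sars1 had a change of -0.81 ± 0.08 and Mars1 of -0.59 ± 0.07, while Hars1 rose by 0.55 ± 0.09.

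Several targets of p53 were among the steepest falls. Of 19 tested genes of the p53 and apoptosis list 10 fell, 2 rose and 7 did not pass (median -0.38, and -0.71 after quantile normalization). Phlda3, an inhibitor of Akt, read 601, 522, 492 and 477 at 2 mmol/l and 37.6, 34.8, 27.7 and 49.8 at 30 mmol/l. Its change was -3.83 ± 0.15 (14.2-fold lower; adjusted p = 2.3e-12). The death receptor Fas read 241, 170.0, 194 and 189.5 at 2 mmol/l and 15.2, 12.6, 25.2 and 13.1 at 30 mmol/l. As for Phlda3, no array at 30 mmol/l came near the range at 2 mmol/l, and the change was -3.63 ± 0.26 (adjusted p = 3.34e-09; -1.90 with 50 added). Gtse1, a mitotic protein that restrains p53, read 160.1, 256, 205 and 176 at 2 mmol/l and 5.20, 16.2, 23.9 and 9.90 at 30 mmol/l. Its arrays at 30 mmol/l were near the bottom of the range, and the change was -4.04 ± 0.41 (adjusted p = 3.33e-07; -1.96 with 50 added). The nuclease Aen had a change of -1.60 ± 0.12, the p53 ubiquitin ligase Mdm2 of -1.55 ± 0.08 and the cell cycle inhibitor Cdkn1a of -1.19 ± 0.17. For these 6 genes the step from 10 to 30 mmol/l was between -0.59 (Phlda3) and 0.71 (Gtse1), and it passed the test in Phlda3 alone (adjusted p = 0.00979). All arrays of Gtse1 and Fas at 10 and 30 mmol/l read under 45.4, so the size of their steps is uncertain.

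Immediate early and cAMP responsive genes, which answer to calcium and cAMP, rose in 12 of 24 tested cases and fell in 7 (median 0.35), with 4 lower without the replicate block, without replicate 2 or without replicate 4. Fos read 26.3, 23.8, 23.2 and 30.0 at 2 mmol/l and 128, 99.8, 175 and 157 at 30 mmol/l. All arrays at 30 mmol/l exceeded those at 2 mmol/l, by 2.41 ± 0.25 (adjusted p = 3.51e-07; 1.31 with 50 added). Crem, whose short products repress cAMP responses, read 249, 258, 272 and 272 at 2 mmol/l and 1059, 914, 1064 and 935 at 30 mmol/l. The arrays of each group lay close together and the groups far apart, and the change of 1.91 ± 0.09 (adjusted p = 1.92e-11) was held by 5 of 5 probe sets and came in near-equal steps (0.94 and 0.97). Pde10a, a phosphodiesterase that breaks down cyclic nucleotides, read 257, 268, 253 and 278 at 2 mmol/l and 909.7, 1060.3, 1116 and 973 at 30 mmol/l. All arrays at 30 mmol/l were higher, with a change of 1.94 ± 0.08 (adjusted p = 1.02e-11), and the cAMP phosphodiesterase Pde4b rose by 1.39 ± 0.12. Srf, a list member that drives Fos in many cells, fell by 1.07 on the log2 scale. Outside this list, the kinase phosphatase Dusp5 rose by 2.35 ± 0.16. The G protein regulator Rgs2, of the receptor and channel list, rose by 1.99 ± 0.18. Crem has 2 promoter entries with a cAMP response element each, 56 and 35 bases before the start (chr17:58984701-58984788 and chr17:58985415-58985489, plus strand, GRCr8, match in capitals).
Crem, first start: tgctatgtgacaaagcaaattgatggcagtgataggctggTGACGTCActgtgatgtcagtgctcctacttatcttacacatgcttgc
Crem, other start: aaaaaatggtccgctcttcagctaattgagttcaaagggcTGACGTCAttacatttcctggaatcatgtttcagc

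Clock genes were mostly lower at 30 mmol/l. In the circadian clock, Bmal1 and its partners turn on the Per, Cry and Nr1d repressors and the output factors Dbp and Hlf. Of 18 tested genes 12 fell, 3 rose and 3 did not pass, with a median of -0.68 under both scalings. Dbp read 1119.6, 1090.3, 618 and 901 at 2 mmol/l and 44.2, 39.8, 48.7 and 71.7 at 30 mmol/l. The highest array at 30 mmol/l was far under the lowest at 2 mmol/l, and the change was -4.19 ± 0.18 (18.2-fold lower; adjusted p = 8.03e-12). Nr1d2 read 1657, 1994, 1833 and 1894 at 2 mmol/l and 480.2, 513, 434 and 509 at 30 mmol/l. Again no array overlapped, and the change was -1.93 ± 0.07 (adjusted p = 2.22e-12), held by 3 of 3 probe sets. Nr1d1 had a change of -1.98 ± 0.21, Hlf of -1.77 ± 0.11, Cry1 of -1.37 ± 0.11 and Per2 of -1.19 ± 0.07. The activating arm did not move together. Bmal1 had 0.51 ± 0.15 (adjusted p = 0.01) and Npas2 0.54 ± 0.14 (adjusted p = 0.00493), while Clock did not pass (0.01) and Rora fell (-0.82). The calls of Bmal1 and Npas2 were lost without replicate 3 (adjusted p = 0.127 and 0.0538) and without replicate 4 (0.0562 and 0.0687). Without replicate 3 the list's rising members were 0. All cultures of a run ended after the same 18 h per the labels; the time of day is not given in the sources used here.

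**Figure D4:**
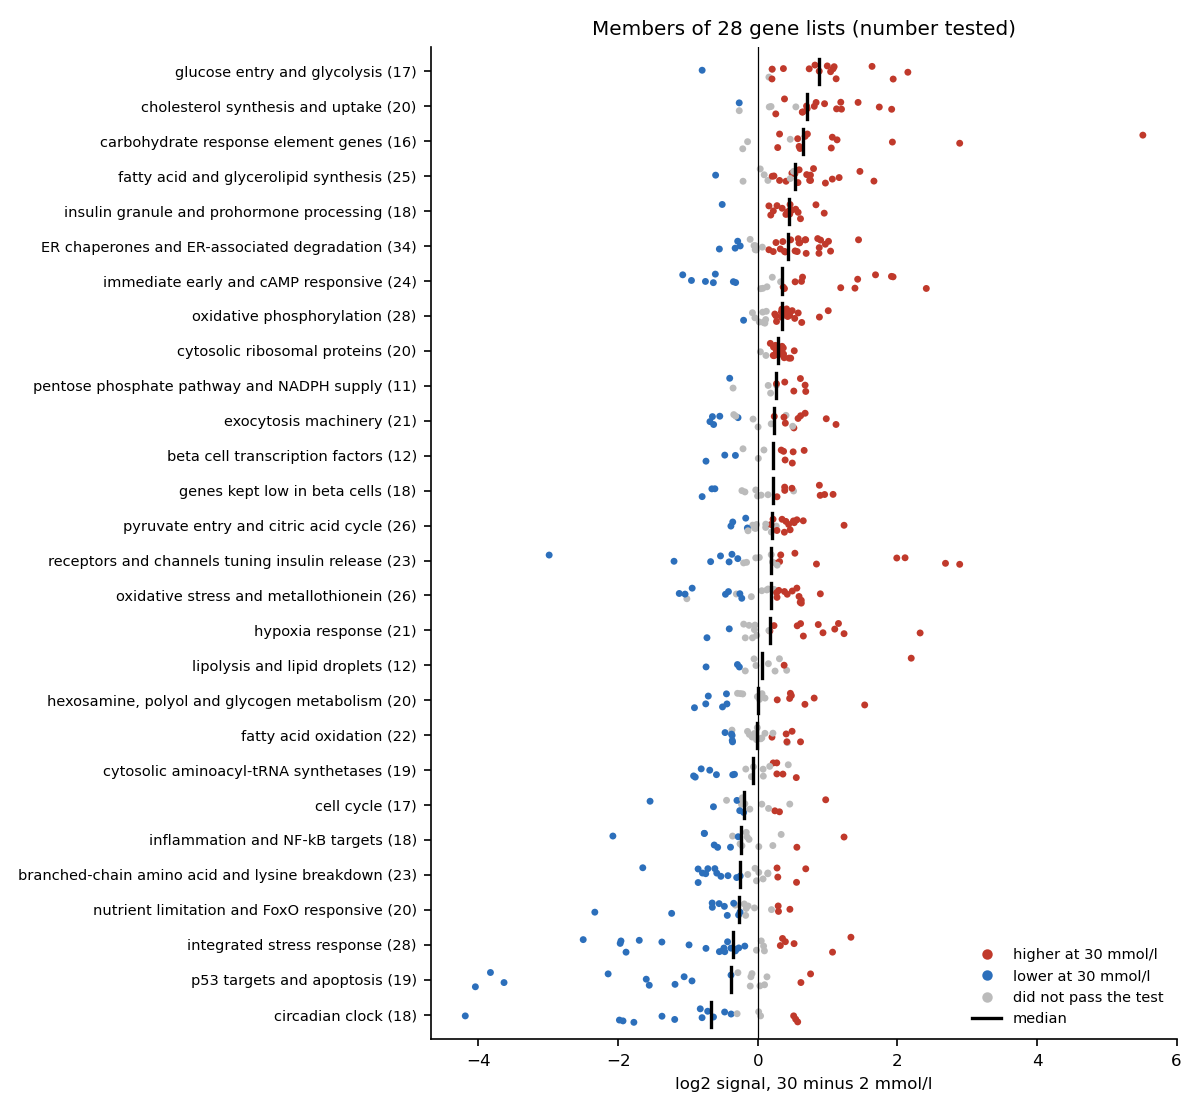
Log2 change, 30 minus 2 mmol/l (horizontal axis), of every tested member of 28 gene lists, 1 point per gene, ordered by the list's median (black bar); red and blue members passed the test and grey ones did not. Glycolysis and cholesterol synthesis lie at the top and the p53 and clock lists at the bottom, and almost every list has members on both sides of 0.

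Hypoxia response genes rose in 11 of 21 tested cases and fell in 2 (median 0.17). Adm, a peptide that hypoxia induces, read 76.1, 59.8, 40.9 and 44.9 at 2 mmol/l and 236, 409.8, 314 and 174 at 30 mmol/l. The arrays at 30 mmol/l were all above those at 2 mmol/l, with a change of 2.33 ± 0.21 (adjusted p = 7.97e-08), made of -1.0 from 2 to 10 and 3.32 from 10 to 30 mmol/l. All arrays at 10 mmol/l read under 45.4 (18.3 to 38.1), so the size of both steps is uncertain. The collagen hydroxylase P4ha1 rose by 1.10 ± 0.11 and the hypoxia factor Epas1 by 1.16 ± 0.09, while its relative Hif1a read 2002, 2168, 2086 and 2108 at 2 mmol/l and 1252, 1282, 1251 and 1264 at 30 mmol/l. The groups did not overlap and the change was -0.73 ± 0.05 (adjusted p = 1.72e-09).

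Oxidative stress and metallothionein genes were split, with 12 of 26 tested higher and 7 lower (median 0.19), and 6 higher without the replicate block. Superoxide dismutase Sod1 rose by 0.62 ± 0.05 and thioredoxin Txn1, the partner of Txnip, by 0.62 ± 0.05, both smaller after quantile normalization (0.30 and 0.30). The glutathione peroxidase Gpx1 fell by 0.94 on the log2 scale and the metallothionein Mt1 by 1.12 (-0.50 with 50 added). Metallothionein transcripts resemble each other, so their probe sets may share signal.

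Of the nutrient limitation and FoxO list 10 of 20 tested genes fell and 3 rose (median -0.26; 1 rose without replicate 4). Klf15, a factor of the fasting state, read 209.9, 288, 203 and 244 at 2 mmol/l and 58.7, 40.8, 39.3 and 49.0 at 30 mmol/l. All arrays at 30 mmol/l were lower, with a change of -2.33 ± 0.17 (adjusted p = 4.28e-09), more of it above 10 mmol/l (-1.45) than below (-0.88). The insulin receptor Insr had -0.65 ± 0.16. Foxo3 had -0.65 ± 0.08, lost with the mean of its probe sets (adjusted p = 0.724). The receptor substrate Irs2 rose by 0.46 ± 0.12 (adjusted p = 0.0055; 0.0505 without replicate 4). Among cell cycle genes 5 of 17 tested fell and 3 rose (1 without the replicate block or without replicate 1); cyclin D1, Ccnd1, rose by 0.97 ± 0.09, while the replication genes Tyms and Mcm7 had -1.54 ± 0.16 and -0.63 ± 0.13. Inflammation and NF-kB targets fell in 7 of 18 tested cases and rose in 2, and 3 fell without the replicate block, 4 without replicate 1 or 2 mmol/l replicate 2. The adhesion molecule Icam1 had -2.08 ± 0.43 (adjusted p = 0.0007) and the interleukin receptor Il1r1 rose by 1.24 ± 0.06 (adjusted p = 6.79e-11). Cytosolic ribosomal proteins rose in 18 of 20 tested cases as deposited (median 0.28) but in 3, with 3 lower, after quantile normalization (median -0.05). Rpl3 moved from 0.45 ± 0.05 to 0.12 and Rps23 from 0.37 ± 0.05 to -0.01.

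Markers of other cells were counted beside these groups. Alpha cell markers rose in 4 of 10 tested cases and fell in 0 (summed signal 15824 to 19498 at 2 and 22816 to 24417 at 30 mmol/l), led by the glutamine transporter Slc38a5 (0.72 ± 0.05; 0.41 after quantile normalization). Delta cell markers rose in 1 of 7 and fell in 2 (summed 6018 to 7219.9 and 8445 to 9151), and both tested PP and epsilon cell markers rose. These sums rest on bright hormone genes. Most of the delta sum was Sst (5254 to 6206 at 2 and 7547 to 8495.5 at 30 mmol/l). Of the 2 delta markers that fell, 1 was the calcium-sensing receptor Casr (-0.77). Gcg was the largest part of the alpha sum (7037 to 9462 and 10125.5 to 11863). After quantile normalization Sst had 0.13 and Gcg 0.00, so the sums depend on scaling. Duct markers rose in 3 of 8 and fell in 2 (summed 6747 to 7467 and 7132 to 7450.3); the keratin Krt7 fell by 0.84 on the log2 scale. Stellate cell and fibroblast markers rose in 5 of 18 and fell in 1 (summed 2470.2 to 5238 and 3204 to 7371, overlapping), with 2 and 0 without the replicate block. Fibronectin, Fn1, read 399.8, 389, 148 and 189 at 2 mmol/l and 990.1, 772, 682 and 644 at 30 mmol/l. It rose in 4 of 4 pairs (1.57 ± 0.14, adjusted p = 4.8e-08). Of endothelial markers 0 of 7 rose and 2 fell, of macrophage and leukocyte markers 2 of 8 rose and 1 fell, and of Schwann and neural markers 0 of 2 rose and 1 fell. Without the replicate block 0 endothelial and 0 macrophage markers fell and 1 macrophage marker rose, and 1 duct marker fell; without replicate 3, 0 Schwann markers fell. The 1 tested acinar marker, the secretory cell factor Bhlha15, rose by 1.71 ± 0.20; the summed signal of the 19 acinar genes was 213 to 298 at 2 and 387 to 489 at 30 mmol/l. That sum includes Bhlha15 itself, which read 45.8 to 70.7 at 2 and 186 to 211 at 30 mmol/l and made up much of its rise. The part of a shift in cell types in the results was not tested.

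Several of the largest changes lay outside the lists. Genes named as the largest increases or decreases were picked only if called and without overlap of arrays. Their lack of overlap, here and in the next paragraph, therefore follows from the choice. Tmem215, a membrane protein, read 773, 986, 689 and 697 at 2 mmol/l and 3547, 3840.3, 3403 and 3204 at 30 mmol/l. The groups were apart, and it rose by 2.17 ± 0.07 (adjusted p = 3.64e-13) and was at that level at 10 mmol/l. Btbd8 read 119.9, 116, 94.7 and 102 at 2 mmol/l and 979, 936, 1139.6 and 762 at 30 mmol/l. No array overlapped, and the change was 3.14 ± 0.12 (adjusted p = 2.7e-12), most of it above 10 mmol/l (2.21). The nucleotidyltransferase Tent5a read 270.3, 219, 211 and 251 at 2 mmol/l and 1742, 1282, 1601 and 1552 at 30 mmol/l, with a change of 2.70 ± 0.11 (adjusted p = 7.61e-12) in 3 of 3 probe sets. Mmp13, a collagenase, read 22.0, 16.7, 21.8 and 31.6 at 2 mmol/l and 136, 212, 224 and 206 at 30 mmol/l. It was low on every array at 2 mmol/l and rose by 3.09 ± 0.23 (1.73 with 50 added), and the step from 10 to 30 mmol/l was 2.72. All Mmp13 arrays at 10 mmol/l read under 45.4, so the size of that step is uncertain. Lrrc73 rose by 2.55 ± 0.16, Tmem100 by 2.26 ± 0.14 and C2cd4a by 2.21 ± 0.44. C2cd4a read 6.80, 44.6, 47.6 and 39.8 at 2 mmol/l and 139, 130, 166 and 86.2 at 30 mmol/l. Replicate 1 at 2 mmol/l was near the floor of 3.4, so the size of the C2cd4a change is uncertain.

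On the falling side, Mybl1, a Myb family factor, read 219.8, 169.7, 196 and 178 at 2 mmol/l and 14.3, 20.9, 17.2 and 33.5 at 30 mmol/l. It was low on every array at 30 mmol/l, with a change of -3.22 ± 0.21 (adjusted p = 1.62e-09; -1.76 with 50 added). Inka2, an inhibitor of the kinase Pak4, had a change of -3.09 ± 0.16, the DNA repair gene Rdm1 of -3.36 ± 0.40 and the cell cycle inhibitor Cdkn2b of -2.72 ± 0.28. With 50 added these were -1.98, -1.03 and -0.96. Dcxr, a xylulose reductase, read 65.2, 65.6, 68.6 and 79.9 at 2 mmol/l and 11.5, 12.8, 6.10 and 35.3 at 30 mmol/l. Replicate 4 stood above the other arrays at 30 mmol/l, all below those at 2 mmol/l, and the change of -2.38 ± 0.31 (adjusted p = 5.03e-06; -0.87 with 50 added) arose above 10 mmol/l (-0.04 then -2.34). Among the 10 smallest p were Rragd, a GTPase that signals amino acids to mTORC1, with arrays of 525, 509, 557 and 566 at 2 mmol/l and 119, 96.2, 116 and 146 at 30 mmol/l. The groups were tight and apart (-2.19 ± 0.09, adjusted p = 5.47e-12). Uap1l1, related to hexosamine enzymes, had -2.21 ± 0.08, Dipk2a -2.26 ± 0.09 and the RNA transport protein Stau2 -1.67 ± 0.07.

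Some genes without a call at 30 over 2 mmol/l had calls at both steps between. In 377 of 10223 tested genes the steps 10 over 2 and 30 over 10 mmol/l both passed in opposite directions while 30 over 2 mmol/l did not. Of these, 168 went down then up and 209 up then down. Both steps use the same arrays at 10 mmol/l with opposite sign, so a deviation of those arrays alone moves the steps apart. The genes printed below were picked for the largest such steps, so their dip or peak at 10 mmol/l follows from the choice. The 377 were 189 without the replicate block, 251 without replicate 2 and 227 without replicate 3, and centring each array on its median gave 183 and 123 in the 2 orders. The heme oxygenase Hmox1 read 1528, 1274, 827 and 1376 at 2 mmol/l and 1372, 1490.1, 754 and 614 at 30 mmol/l. The ends overlapped (-0.31 ± 0.19, adjusted p = 0.197), and its mean at 10 mmol/l was 264 ± 166, with steps of -2.42 and 2.11. The metallothionein Mt2A read 1332, 793, 1258 and 1542 at 2 mmol/l and 492, 559, 639.6 and 698 at 30 mmol/l. These ends did not overlap, yet the change of -1.02 ± 0.52 did not pass (adjusted p = 0.125), in a fit that also takes in its wide spread at 10 mmol/l (139 ± 156). With only the arrays at 2 and 30 mmol/l it passed (adjusted p = 4.23e-05). The adaptor Shc4 had steps of -1.33 and 1.40, and the receptor Cd40 of -1.75 and 1.38. Cd40 read 5.80, 29.9, 35.4 and 22.4 at 10 mmol/l, all under 45.4, so the size of its steps is uncertain.

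Genes of the other order peaked at 10 mmol/l, the preculture concentration. The protocadherin Pcdh9 read 233, 285, 284 and 283 at 2 mmol/l and 252, 206, 219 and 251 at 30 mmol/l, against 484 ± 59.5 at 10 mmol/l, with steps of 0.83 and -1.06; at 30 over 2 mmol/l it had -0.22 ± 0.10 (adjusted p = 0.0878; 0.0292 without replicate 1). The insulin receptor-related receptor Insrr had steps of 0.81 and -1.15, the sulfotransferase Chst5 of 1.30 and -1.19 and the ion cotransporter Slc12a1 of 0.89 and -0.76. Their ends overlapped in each case, and Chst5 passed at 30 over 2 mmol/l without 30 mmol/l replicate 4 (adjusted p = 0.0463). For Slc12a1 all arrays at 30 mmol/l read under 45.4 (34.5 to 43.8), so the size of its step from 10 to 30 mmol/l is uncertain.

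**Figure D5:**
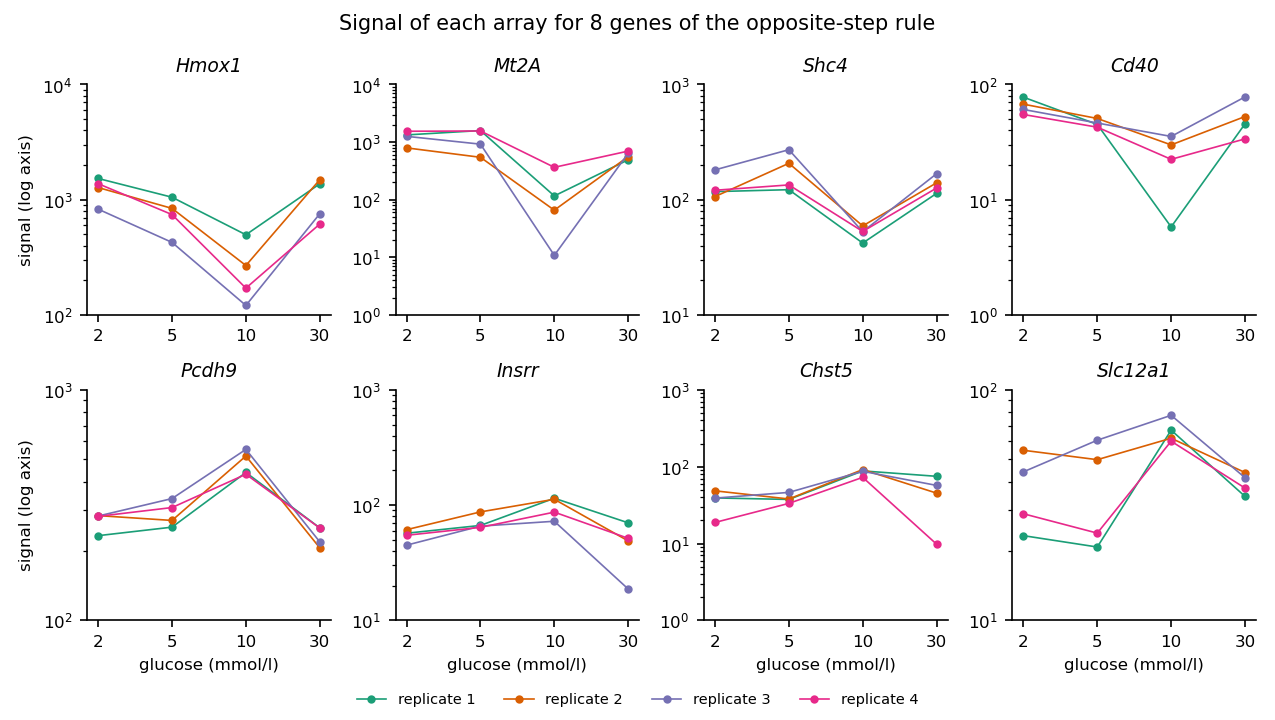
Signal of each of the 16 arrays (vertical log axes) against glucose concentration in mmol/l (horizontal axis, the 4 concentrations at equal spacing) for 8 genes whose steps ran in opposite directions; a line joins the arrays of 1 replicate number. By the rule that chose them, Hmox1, Mt2A, Shc4 and Cd40 dip at 10 mmol/l, and Pcdh9, Insrr, Chst5 and Slc12a1 peak there.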

How the data were processed

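RNA from 16 islet cultures (4 glucose concentrations, 4 replicate numbers) was read on 1-colour Affymetrix Rat230_2 arrays. The authors' deposited table holds linear signal intensity, made with GCOS per the submitters' processing notes, whose version and settings are not given in the sources used here; the deposited run files were used for fluidics run, module, scan day and chip lot. The mean of each array after trimming 2% at each end was 150.04 to 150.05, so no further scaling was applied. Signals under 3.4, the 10th percentile, were set to 3.4, log2 was taken, and probe sets in the upper 60% by mean level (18625) were tested with limma 3.58.1 in R 4.3.3: lmFit over 16 arrays with group and replicate number as terms (9 residual degrees of freedom), eBayes with a trend, two-sided, Benjamini-Hochberg adjustment. An adjusted p is limma's, and the number of arrays limits its precision.

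Whether the replicate numbers pair the arrays was checked on deviations from the group means. Same-numbered arrays (24 pairs) had correlations of 0.136 to 0.434, and 72 pairs that differ in number and concentration had -0.264 to 0.130; with the series' text on preparations, the numbers were taken to pair the arrays. There were 3 scan days and 2 chip lots.

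By the platform annotation 20826 probe sets had 1 symbol, 436 several and 9780 none; 14218 genes had a single-symbol probe set. The 28 pathway and 9 cell type lists held 815 genes, 728 with a probe set and 618 tested; other members were not analysed here. Genes were named by a rule: the 20 largest called increases and decreases without overlap of arrays and above the floor, the 10 smallest p, up to 5 members per list and direction, 5 genes per order of opposite steps, and a fixed set of 48 genes (42 tested); 295 genes met it and the text prints a part. The members, lists and naming rule were chosen with earlier results of these data known. Alternatives were no replicate block, the number as a random block, a block for scan day, the 8 arrays alone, quantile normalization, median centring, other filters, floors, variance models and thresholds, a gene's mean over its probe sets, and omission of single arrays or numbers. The counts of genes called at 30 over 10 mmol/l and in opposite steps under these settings, and the marking of dim genes, were added after seeing the data. Promoters came from RefSeq (GRCr8).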

Additional observations from a re-analysis of the deposited data

Results flagged for a closer look

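Over the genes named in the report, 334 groups of 4 arrays were examined for an array far from the other 3, and 17 held one; the gap test used is expected to mark about 1 in 20 groups by chance. Each value below stands beside the median of the other 3 arrays of its group. Replicate 1 at 2 mmol/l was low for Pcdh9 (233 against a median of 284). Replicate 2 at 2 mmol/l was high for Hes1 (131 against a median of 78.8). Replicate 4 at 2 mmol/l was low for Mlxipl (54.3 against a median of 68.3). Replicate 4 at 2 mmol/l was high for Pklr (167 against a median of 128) and Sdha (826 against a median of 776). Replicate 1 at 30 mmol/l was low for Casr (89.4 against a median of 135). Replicate 1 at 30 mmol/l was high for Ptprn (2539.5 against a median of 1823). Replicate 2 at 30 mmol/l was low for Atf5 (1040.1 against a median of 1278), Bmal1 (121 against a median of 153) and Irs2 (255 against a median of 408). Replicate 2 at 30 mmol/l was high for Smim7 (1630.1 against a median of 1475), Ins2 (7761 against a median of 6153), Sst (8496 against a median of 7592) and Cdkn2b (31.0 against a median of 7.10). Replicate 4 at 30 mmol/l was high for Bckdha (64.7 against a median of 37.1), Ddit3 (489.9 against a median of 248) and Rdm1 (17.3 against a median of 5.00). The cause of these differences was not tested.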

How the results depend on the processing

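At 30 over 2 mmol/l the count of 8615 probe sets was 6869 without the replicate block and 6417 to 8730 under every other setting that kept all 16 arrays or the 8 compared, apart from a 1.5-fold threshold, which left 3933. Leaving out 1 array or 1 replicate number left 7237 to 7988. At 30 over 10 mmol/l 2754 passed. This count depended more on the setting: 1271 without the replicate block, 1399 at an adjusted p under 0.01 and 717 with a 1.5-fold threshold. It was 1559 to 2834 with an array or replicate number left out, lowest without replicate 3 (1559) and 1778 without replicate 2. At 10 over 2 mmol/l 7885 passed, 6064 without the replicate block, 3285 with a 1.5-fold threshold and 6353 to 7924 on leaving out an array or a number. Centring each array on its median moved the split at 30 over 10 mmol/l from 1230 higher and 1524 lower to 1268 higher and 1023 lower, and at 10 over 2 mmol/l from 3864 and 4021 to 3208 and 4432. The cause was not tested.

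Of 167 genes named, 27 lost or gained a call under some setting other than a stricter threshold, and all losses that the replicate block decides stand in the report. Quantile normalization turned or ended the change of bright genes: Ins2 at -0.06, Hspa5 at -0.09, Rps23 at -0.01, Gcg at 0.00 and Xbp1 at -0.27. Mt2A passed with log2 of the signal plus 50 (adjusted p = 0.00867) and without replicate 3 (adjusted p = 0.0146).

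With 4 arrays a group, a small change of a dim gene was not detectable; signals near 3.4 were set to that floor. Fluidics module and scan order cannot be told apart from glucose.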
